A study of Mus musculus with 4 samples.

Results

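The genes described here are 34 mouse genes of cholesterol and fatty acid synthesis: 16 enzymes that make cholesterol, 12 enzymes that make, lengthen or desaturate fatty acids, and 6 genes that regulate both routes or carry sterol. They were taken by gene name from the array's own annotation, from a list drawn up with earlier results of these data known, and have 68 of the 41174 probes that are not controls. Of these, 65 passed the filter on dim probes and were tested together with 26985 probes in all. Every one of the 34 genes kept at least 1 tested probe. The 3 probes left out for low signal belong to Acss2 (2 probes) and Acacb (1 probe).

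C2C12 is an established line of mouse myoblasts, muscle precursors that form multinucleate myotubes when serum is reduced. Untreated cultures were grown to 80% confluence and differentiated for 6 days. Treated cultures went through the same steps and received 200 ng/ml recombinant human follistatin 288 every 24 h. This secreted glycoprotein captures activins and myostatin, which then cannot reach their receptors. The growth protocol gives the differentiation serum as 2% horse serum and the source names give 10%, and all cultures come from this 1 line. On each of 4 two-colour Agilent arrays the RNA of a treated culture (Cy3) was hybridised against that of an untreated culture (Cy5). All arrays have this one dye orientation per the labels, so a dye effect and a treatment effect cannot be told apart.

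Cells make cholesterol from acetyl-CoA through mevalonate, squalene and lanosterol, and make palmitate from acetyl-CoA and malonyl-CoA. Both routes are controlled by the sterol regulatory element-binding proteins (SREBPs), membrane-bound transcription factors encoded by Srebf1 and Srebf2. When membrane cholesterol is low, Scap escorts them from the endoplasmic reticulum to the Golgi, where proteases release the active factor, and the Insig proteins hold Scap back when sterols are plentiful. SREBPs commonly act beside NF-Y, a factor that binds the sequence CCAAT.

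The 4 arrays were not equally alike in their ratios. Replicates 1, 2 and 3 were on slide 1 and replicate 4 on slide 2, and the share of gene spots well above background was 61.1% to 65.2% in the treated channel and 61.4% to 69.4% in the untreated one. Over the 26985 tested probes (probes are not replicates), replicates 2 and 3 had a correlation of r = 0.817 in their ratios, whereas the other 5 pairs lay between 0.0378 and 0.318. Whether replicates 2 and 3 share a culture or an RNA was not tested. The labels call all 4 biological replicates, and the p-values below measure the spread between these 4 ratios only. All 9 skeletal muscle markers were above background in both channels on 4 arrays, while hepatocyte and endothelial markers were on none. Of 8 adipocyte markers, Lpl and Pparg were above background on every array and Adipoq, Plin1, Cfd and Lep on none. The median log2 ratio of the muscle markers was 0.87, -0.41, -0.62 and -0.49 on replicates 1 to 4. That of the 4 myoblast markers was 0.29, 0.686, 0.509 and 0.20, but these did not run together. Top2a and Mki67, genes of dividing cells, were positive on every array (means 0.864 and 0.41, limma adjusted p 0.106 and 0.235). Myf5 gave 0.335, 1.23, 1.102 and -1.103 and Pax7 0.049, -0.364, -0.779 and -0.212, each with both signs. The 3 measured fibroblast markers stood at 0.46, 0.29, -0.215 and 1.20. The part of such differences in cell makeup in the results below was not tested, and in cultures measured as bulk RNA fewer cells of a type and less RNA per cell cannot be told apart.

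A set of 4 array probes and 4 promoters of the group is shown first, the probes because their ratios are described below and the promoters as examples of the letters searched for. The probes are 60-base oligos of the array, given in the sense of the transcript with positions in mm9, and the span of each is longer than the oligo, so that it bridges an intron. Idi1 and Nsdhl had the highest mean ratios among cholesterol enzymes, Acaca had probes of opposite sign, and Insig1 had the largest gap between replicates 1 and 2 among these 4. The Idi1 probe lies at chr13:8886802-8887206 (plus strand), the Nsdhl probe at chrX:70200532-70201713 (plus), the Acaca probe at chr11:84093999-84106414 (plus) and the Insig1 probe at chr5:28401146-28401618 (plus).
Idi1: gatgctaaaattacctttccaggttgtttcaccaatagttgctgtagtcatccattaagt
Nsdhl: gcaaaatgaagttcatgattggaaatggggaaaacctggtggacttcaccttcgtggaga
Acaca: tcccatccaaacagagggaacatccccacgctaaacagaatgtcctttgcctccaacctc
Insig1: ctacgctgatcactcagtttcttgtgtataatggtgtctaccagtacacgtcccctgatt

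RefSeq promoters (GRCm38.p6) were matched by symbol for 27 of the 34 genes, and the 250 bases before each start were searched on both strands. CCAAT, or ATTGG on the other strand, was present in 21 of these 27 genes (77.8%) and in 39.7% of the 10308 other tested genes with a promoter entry. Over all 27025 genes with a promoter entry the share was 37.5%. The E-box letters CACGTG were present in 5 of 27 (18.5%), against 9.38% of the other tested genes and 6.86% of all genes with an entry. The sterol regulatory element, searched as TCACNCCAC, was found in 1 of 27 (Hmgcs1), against 1.33% of the other tested genes and 1.22% of all genes with an entry. These matches describe letters in a window and are no measure of binding. The last 150 bases before the start are given below for 4 cholesterol enzymes, among them Ebp, whose ratio was negative on every array, with matches to CCAAT on either strand and to the sterol regulatory element in capitals. The matches shown do not overlap each other. Hmgcs1 is at chr13:119690201-119690350 (plus), Idi1 at chr13:8885456-8885605 (plus), Lss at chr10:76531455-76531604 (plus) and Ebp at chrX:8193513-8193662 (minus).
Hmgcs1: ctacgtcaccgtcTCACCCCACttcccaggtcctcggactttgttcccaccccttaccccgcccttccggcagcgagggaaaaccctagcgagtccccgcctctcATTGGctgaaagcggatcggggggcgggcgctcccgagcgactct
Idi1: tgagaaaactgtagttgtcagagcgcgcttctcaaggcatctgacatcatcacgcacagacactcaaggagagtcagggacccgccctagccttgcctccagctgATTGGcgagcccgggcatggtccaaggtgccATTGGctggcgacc
Lss: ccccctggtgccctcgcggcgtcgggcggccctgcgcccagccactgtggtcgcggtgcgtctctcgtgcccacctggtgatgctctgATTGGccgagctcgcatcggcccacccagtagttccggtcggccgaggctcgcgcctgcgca
Ebp: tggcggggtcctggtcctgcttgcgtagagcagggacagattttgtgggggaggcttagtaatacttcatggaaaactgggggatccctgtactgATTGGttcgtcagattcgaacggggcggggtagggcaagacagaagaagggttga

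No probe of the 34 genes passed the test, and the group stood at different levels on different arrays. Every ratio below is the log2 of the treated over the untreated signal, set to 0 at the median of the tested probes on its array. Of the 65 probes, 0 reached a limma adjusted p under 0.05 (Benjamini-Hochberg over 26985 probes), against 0.00741% of all tested probes. The smallest adjusted p among the 65 was 0.110. The 2 probes called over the array were Olfr1299 and Ces3b, both with a negative ratio and neither of them on the lists used here. Neither was called with the filter on both channels or with normexp and loess, where the count over the array was 0. At an unadjusted p under 0.05, 11 of the 65 probes passed (16.9%), against 20.7% of all tested probes. Of these, 7 were higher in treated cells (9.83% of all probes were) and 4 lower (10.9% of all probes). Among the 4 lower is the Acly probe A_52_P373556, which passed the filter through the untreated channel alone, so its sign is tied to the filter. The share of the group at that level is thus no larger than the background.

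The sign of the ratio depended on the array. The ratio was above the array median for 42 of 65 probes on replicate 1, 33 on replicate 2, 23 on replicate 3 and 49 on replicate 4, where 50% of all probes are by construction. The median ratio of the 65 probes was 0.17, 0.003, -0.20 and 0.47 on replicates 1 to 4. Replicate 4 was high and replicate 3 low, and the arrays lay on both sides of 0. Against all other probes the group's median differed by 0.111 ± 0.281 (SD, n = 4), a difference smaller than its spread between arrays. Without replicate 4 the value was -0.00702, and with replicates 1 and 4 alone it was 0.320. Past 1.6-fold on a single array, 19 probes were higher and 0 lower on replicate 4, where 9.28% of all probes were higher and 9.83% lower. On replicate 3 the count was 1 higher and 15 lower, where 16.4% and 19.5% of all probes were. On replicate 1 it was 15 higher and 1 lower (14.7% and 11.7% of all probes). On replicate 2 it was 5 higher and 12 lower (13.2% and 15.4% of all probes).

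The highest of a probe's 4 ratios fell on replicate 4 for 38 of the 65 probes (58.5%), against 30.3% of all tested probes. It fell on replicate 1 for 18 probes (27.6% of all probes), on replicate 2 for 5 (22.4% of all) and on replicate 3 for 4 (19.8% of all). The lowest fell on replicate 3 for 35 probes and on replicate 2 for 14, against 25.4% and 18.5% of all probes. It fell on replicate 1 for 12 (27.4% of all) and on replicate 4 for 4 (28.6% of all). A negative ratio on both replicates 2 and 3 with a positive one on replicate 4 was seen for 19 probes (29.2%), against 18.5% of all probes. Within the 65 probes the correlation was r = 0.88 for replicates 2 and 3 and 0.0169 to 0.431 for the other pairs, as a description over probes that share RNA and array. The same sign on all 4 arrays was positive for 17 probes (26.2%, against 13.8% of all probes) and negative for 7 (10.8%, against 14.5%). These 7 include the Acly probe that passed the filter through the untreated channel alone.

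**Figure D1:**
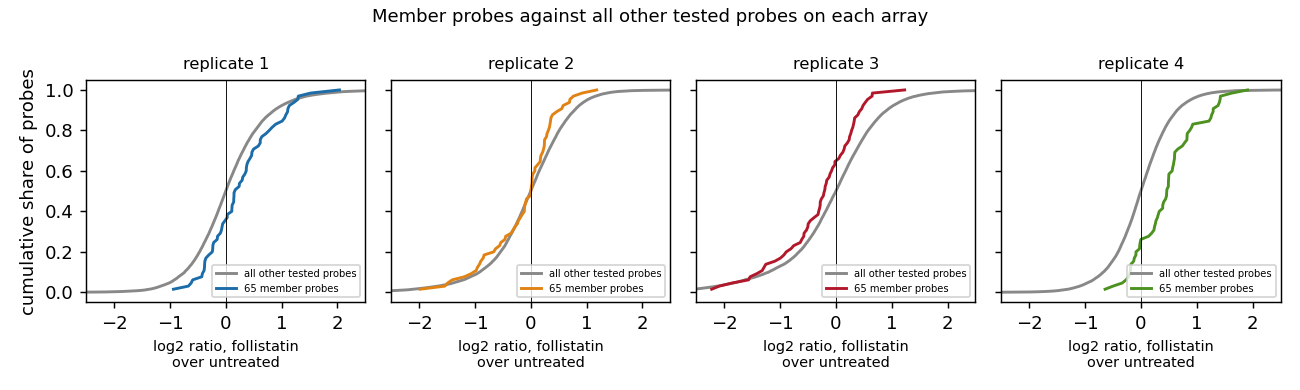
Cumulative share of probes (vertical axis) by log2 ratio of follistatin over untreated (horizontal axis, array median at 0) on each of the 4 arrays, for the 65 tested probes of the group (coloured) and all other tested probes (grey). The coloured line lies to the left of the grey one over most of its course on replicate 3, with a median of -0.20, and to the right on replicate 4, with a median of 0.47.

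Over all tested probes, in none of the 3 roles was the mean shift larger than its spread between arrays. The median shift against all other probes was 0.153 ± 0.364 (SD, n = 4 arrays) for the 32 probes of cholesterol enzymes, 0.133 ± 0.174 for the 20 probes of fatty acid enzymes and 0.102 ± 0.400 for the 13 probes of regulators. On replicates 1 to 4 the median ratio of the cholesterol enzymes was 0.36, 0.007, -0.28 and 0.53. That of the fatty acid enzymes was 0.15, 0.05, -0.03 and 0.37, the narrowest range of the 3. The regulators stood at 0.24, -0.32, -0.10 and 0.59. In each role replicate 4 was the highest array, and in none did all 4 arrays lie on one side of 0 over these probes. Without replicate 4 the shifts were 0.0265, 0.0549 and -0.0613 for cholesterol enzymes, fatty acid enzymes and regulators, and without replicate 3 they were 0.298, 0.189 and 0.171. With the brightest probe standing for each gene, the shift of the fatty acid enzymes was 0.340 ± 0.0841 and positive on all 4 arrays (lowest 0.247), and that of the cholesterol enzymes 0.0871 ± 0.308. The fatty acid enzymes were also positive on all 4 arrays over probes above background in both channels (0.192 ± 0.122, lowest 0.0752). They were not with normexp and loess (0.066 ± 0.16, lowest array -0.107) or without a filter (0.12 ± 0.158, lowest array -0.0285).

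**Figure D2:**
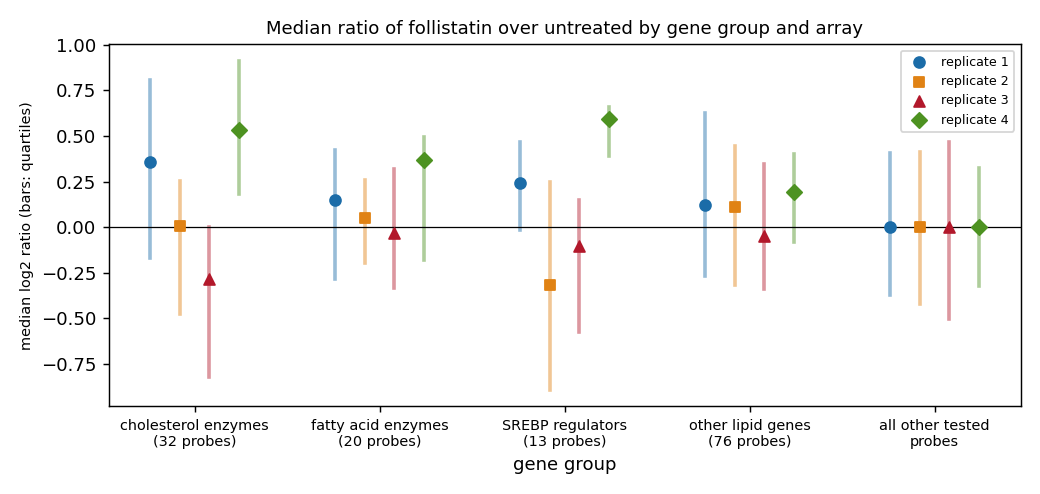
Median log2 ratio of follistatin over untreated (vertical axis, array median at 0) for each gene group (horizontal axis) on the 4 arrays. Points are medians over probes and bars run from the lower to the upper quartile. In all 3 roles replicate 4 is the highest, at 0.53, 0.37 and 0.59.

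Among the 16 cholesterol synthesis enzymes, 18 of 32 probes had a positive mean ratio and 14 a negative one. All 4 arrays were positive for 7 probes (21.9%, against 13.8% of all probes) and negative for 2 (6.25%, against 14.5%). The lowest of the 4 ratios fell on replicate 3 for 24 of the 32 probes, against 25.4% of all tested probes.

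The early part of the route makes mevalonate and turns it into isoprenoid units. Hmgcs1, the synthase that makes HMG-CoA, had 3 probes that did not run together. Its probe A_52_P388072 gave ratios of 1.29, 0.69, 0.57 and 0.0004 on replicates 1 to 4, a mean of 0.64 with a limma SE of 0.238 and an adjusted p of 0.208. The brightest Hmgcs1 probe, A_51_P146941, gave -0.30, 0.01, -0.53 and 0.58, with a mean of -0.06 (SE 0.226, limma adjusted p 0.897). The first was at or above 0 on every array, and the second changed sign between arrays. The third, A_52_P119039 on a cDNA clone, gave -0.37, -0.96, -1.53 and 0.19, with a mean of -0.67 (SE 0.296, limma adjusted p 0.261). It was negative on the 3 arrays where the first was clearly positive. The signal of the first was 225 to 577 in the untreated channel, and that of the brightest 26794 to 39195.

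Idi1, the isomerase that interconverts the 5-carbon isoprenoid units, had the smallest p in the group. Its intron-spanning probe, the sequence shown above, gave 1.01, 0.70, 0.66 and 1.42 on replicates 1 to 4, with processed signals of 415 to 631 in treated and 209 to 383 in untreated cells. The treated channel was higher on every array, and the mean ratio was 0.95 ± 0.35 (SD, n = 4; SE 0.198, limma unadjusted p 0.00236, adjusted p 0.110). A second and brighter Idi1 probe, A_51_P329711 at chr13:8891386-8891445 (mm9, plus strand), gave -0.22, 0.07, -0.39 and 1.30. Only replicate 4 stood clear of 0 on that probe, and its mean was 0.19 (SE 0.301, limma adjusted p 0.738).

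Fdps makes farnesyl diphosphate, the branch point to squalene. Its probe A_52_P593965, designed on a cDNA clone, gave -0.38, -1.07, -1.56 and -0.33, with a mean of -0.84 (SE 0.254, limma adjusted p 0.158). Treated signal was lower on every array, and lowest against untreated on replicate 3. The other Fdps probe, on a RefSeq transcript, had a mean of -0.10 and both signs among its arrays. Mvk, the kinase of mevalonate, and Pmvk, the kinase of phosphomevalonate, had means of 0.20 to 0.29 and 0.40 to 0.41 over 2 probes each. Both Pmvk probes were positive on all 4 arrays, between 0.17 and 0.87, with adjusted p of 0.258 and 0.282 by limma. Mvd, the decarboxylase after them, stood at -0.06 and Acat2, the thiolase that makes acetoacetyl-CoA, at -0.08.

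From farnesyl diphosphate on, Fdft1 makes squalene, Sqle oxidises it and Lss closes it into lanosterol. The Fdft1 probe of highest signal gave 0.89, 0.17, -0.06 and -0.02, so that replicate 1 set its mean of 0.25 (SE 0.218). A dim second Fdft1 probe, at signals of 50 to 72 in treated and 41 to 53 in untreated cells, gave -0.08, 0.76, 0.42 and 0.78. The mean of this dim probe was 0.47 (SE 0.208, limma adjusted p 0.259), and 0.142 with normexp and loess. Sqle gave 0.11, -0.15, -0.50 and 0.27 around a mean of -0.07 (SE 0.195), with signals of 17919 to 27319 in treated and 22038 to 24843 in untreated cells. For Sqle the 2 channels overlapped. The Lss probe A_52_P118161 gave 0.46, 0.35, 0.34 and 1.42, positive on all arrays, with a mean of 0.64 (SE 0.236, limma adjusted p 0.203). Replicate 4 stood apart on that probe, and the other 2 Lss probes had means of 0.45 and 0.41 with their highest value on replicate 1.

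The enzymes that turn lanosterol into cholesterol were spread on both sides of 0. Nsdhl, which removes a methyl group of the sterol ring as part of the demethylation complex, gave 1.14, 0.92, 0.30 and 0.93 on its intron-spanning probe. Treated signal ran from 1750 to 2628 and untreated signal from 846 to 1388, so the channels did not overlap. The mean was 0.82 ± 0.36 (SD, n = 4; SE 0.199, limma adjusted p 0.122). The 3 other Nsdhl probes had means of 0.36, 0.39 and -0.28, each with both signs.

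Ebp, the sterol isomerase, had 1 bright probe that gave -0.36, -0.63, -1.32 and -0.22. Its treated signal of 50989 to 88515 lay below its untreated signal of 101965 to 135316 on every array, with a mean ratio of -0.63 ± 0.49 (SD, n = 4; SE 0.228, limma adjusted p 0.198). Cyp51, the lanosterol demethylase, gave 0.34, 0.34, -0.22 and 0.50 on its brightest probe, with a mean of 0.24 (SE 0.191). Its other 2 probes had means of 0.39 and -0.07. Replicate 3 was the lowest array on all 3.

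Tm7sf2, a sterol reductase, Hsd17b7, a ketosteroid reductase, and Dhcr7, which makes cholesterol from its last precursor in one branch, were split between arrays. Tm7sf2 gave 0.03, -1.49, -2.09 and 0.46. The first Hsd17b7 probe gave -0.23, -1.54, -2.22 and 1.40, and the 2 Dhcr7 probes -0.84 and -0.56 on replicate 2 with 0.44 and 0.14 on replicate 4. Replicates 2 and 3 were negative and replicate 4 positive on each of these probes. None of the 5 probes had an adjusted p under 0.350 by limma.

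**Figure D3:**
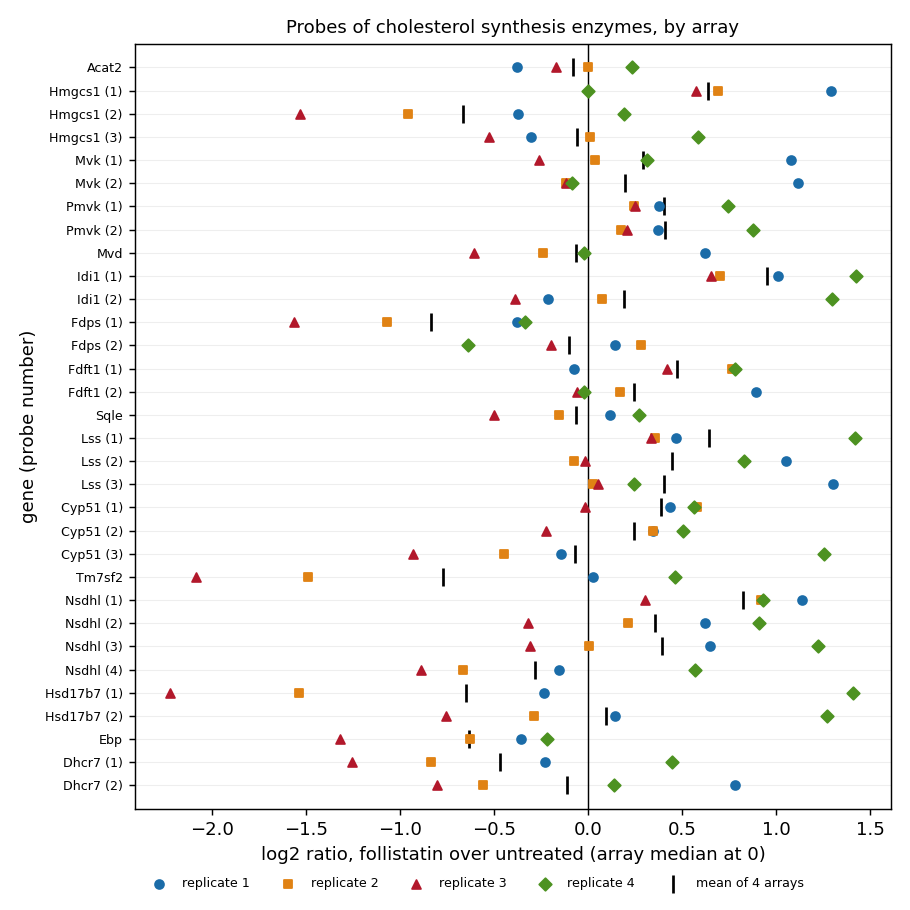
Log2 ratio of follistatin over untreated (horizontal axis, array median at 0) for the 32 tested probes of the 16 cholesterol synthesis enzymes, in pathway order (vertical axis, probes of a gene numbered). Each symbol is 1 array and the black bar is the mean of 4. Replicate 3 is the lowest array for 24 of the 32 probes, and the first Idi1 probe lies between 0.66 and 1.42.

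Among the 12 fatty acid enzymes, 12 of 20 probes had a positive mean and 8 a negative one. All 4 arrays were positive for 8 probes (40.0%, against 13.8% of all probes) and negative for 4 (14.5% of all probes were). These 4 include the Acly probe that passed the filter through the untreated channel alone. The split between replicates 2 and 3 on one side and replicate 4 on the other was seen for 2 of the 20 probes, against 18.5% of all probes.

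The supply of substrate comes first. Acly cuts citrate into cytosolic acetyl-CoA, and its brighter probe gave 0.11, 0.12, 0.32 and 0.33, a mean of 0.22 ± 0.12 (SD, n = 4; SE 0.163, limma adjusted p 0.464). Its other probe, A_52_P373556 on a cDNA clone, was not well above background in the treated channel on any array, with signals of 7 to 25 against 17 to 32 in the untreated channel, which was above background on 3 arrays. Its ratios of -0.94, -1.98, -1.42 and -0.12 therefore hold only a bound, at least 1.01-fold lower in treated cells (limma adjusted p 0.140). That bound sets the untreated mean against the lowest signal well above background, and the measured log2 means were 3.56 in treated and 4.67 in untreated cells. With normexp and loess the mean ratio of this probe was -0.0976 (limma adjusted p 0.547). Me1, the malic enzyme that supplies NADPH, had means of 0.33 and 0.31 on 2 probes that were positive on all 4 arrays, with adjusted p of 0.307 and 0.314 by limma. Acss2, which activates acetate, had means of -0.22 and 0.01.

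Acaca, the acetyl-CoA carboxylase that makes malonyl-CoA for synthesis, had probes that opposed each other. The brightest, A_52_P318040 at chr11:84214359-84214418 (mm9, plus strand), gave 0.83, 0.31, 0.28 and 0.41, a mean of 0.46 (SE 0.180, limma adjusted p 0.221). The probe A_52_P595124, whose sequence is shown above, gave -0.43, -0.35, -1.09 and -0.18, a mean of -0.51 (SE 0.208, limma adjusted p 0.231). Each had 1 sign on all 4 arrays, and the signs were opposite. The other 2 Acaca probes had means of -0.09 and -0.01. Acacb, the mitochondrial carboxylase, had a mean of 0.21 on the 1 probe tested.

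Fasn, the synthase that builds palmitate, gave 0.50, 0.02, 0.13 and 0.49 on its brighter probe, at signals of 91931 to 111663 in treated and 79660 to 100034 in untreated cells. All 4 ratios were positive, 2 of them close to 0, and the mean was 0.28 ± 0.25 (SD, n = 4; SE 0.178, limma adjusted p 0.391). With normexp and loess the mean of this probe was 0.139. The other Fasn probe had a mean of 0.16 with both signs (limma adjusted p 0.655). Elovl6, which lengthens palmitate to stearate, gave 0.29, 0.18, 0.46 and 1.91, a mean of 0.71 (SE 0.314, limma adjusted p 0.259) that replicate 4 raised. Elovl5, which lengthens polyunsaturated chains, was negative on all 4 arrays on both probes, with means of -0.39 and -0.29 and adjusted p of 0.264 and 0.380 by limma.

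The desaturases put double bonds into the chains. Scd1, a stearoyl-CoA desaturase, gave 0.17, 0.36, 0.49 and 0.46, a mean of 0.37 ± 0.14 (SD, n = 4; SE 0.165, limma adjusted p 0.263). Scd2, a second enzyme of that kind, gave 1.11, 0.29, 0.27 and 0.82, a mean of 0.62 ± 0.41 (SD, n = 4; SE 0.211, limma adjusted p 0.182). Both were positive on every array, and for Scd2 the treated signals (78859 to 117636) lay above the untreated ones (48623 to 69034). Fads1, a desaturase of polyunsaturated fatty acids, gave 1.22, 1.18, 1.23 and -0.19. Its mean of 0.86 (SE 0.284, limma adjusted p 0.175) rests on the 3 arrays of slide 1, since replicate 4 was negative. Fads2, the desaturase that acts before Fads1, had a mean of -0.12 with both signs.

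Of the regulators, no probe had an unadjusted p under 0.05, against 20.7% of all tested probes. Srebf1 gave 0.25, -0.89, -0.99 and 0.50, negative on replicates 2 and 3 and positive on replicates 1 and 4, with a mean of -0.29 (SE 0.303, limma adjusted p 0.609). With replicates 1 and 4 alone its mean was 0.372. The brightest Srebf2 probe gave 0.11, -0.11, -0.08 and 0.60, a mean of 0.13 (SE 0.193), and its 3 other probes had means of -0.58, -0.16 and 0.45. Scap, the escort protein, stood at -0.01 on its 1 probe.

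Insig1 and Insig2 encode the proteins that retain Scap. The brightest Insig1 probe gave 2.04, -0.10, 0.15 and 0.26, and the probe whose sequence is shown above gave 0.72, -1.19, -0.57 and 0.60. Replicate 1 was the highest array on both, and their means were 0.58 (SE 0.366) and -0.11 (SE 0.350), with adjusted p of 0.390 and 0.876 by limma. Both Insig2 probes were positive on all 4 arrays, with means of 0.43 and 0.35 and adjusted p of 0.250 and 0.312 by limma. Stard4, a cytosolic sterol carrier, gave 0.37, -1.41, -1.86 and 1.38 on its brightest probe, the widest range of the 65 between replicates 3 and 4 after that of Hsd17b7. The mean of that probe was -0.38 (SE 0.535), and its other 2 probes had means of 0.21 and 0.13.

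**Figure D4:**
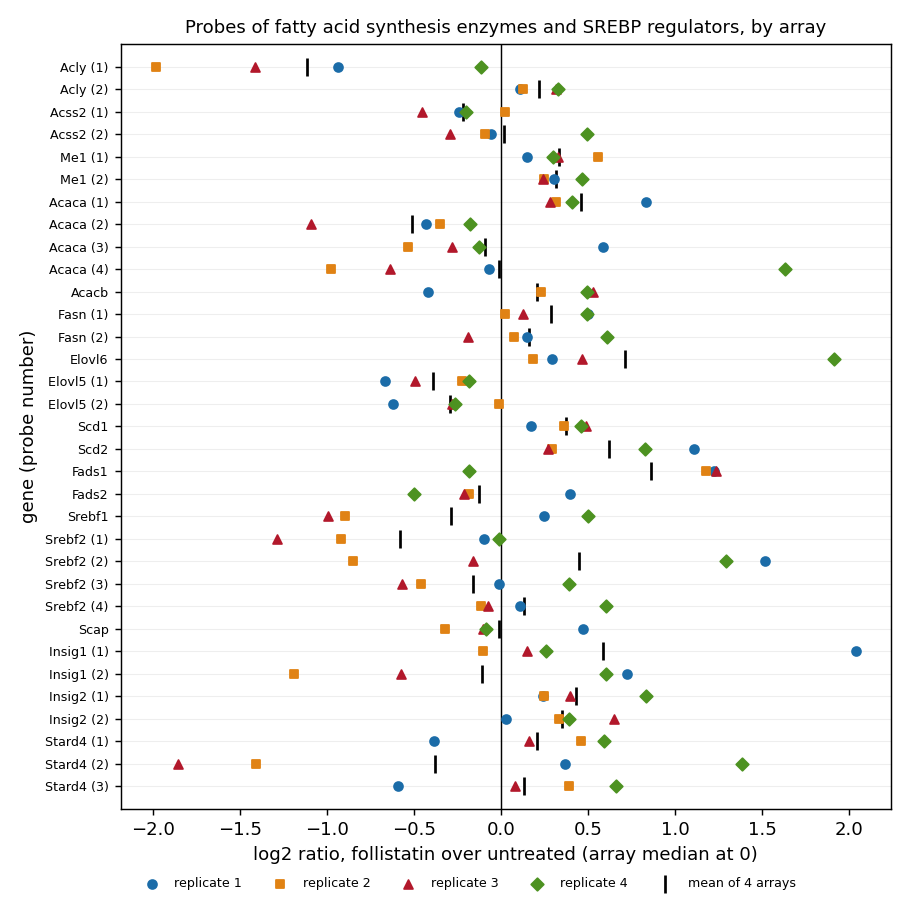
Log2 ratio of follistatin over untreated (horizontal axis, array median at 0) for the 20 tested probes of fatty acid enzymes and the 13 probes of regulators below them (vertical axis). Each symbol is 1 array and the black bar is the mean of 4. Both Me1 probes, Scd1 and Scd2 are positive on all arrays, while Srebf1 is negative on replicates 2 and 3 and positive on the others.

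The group has 21 genes with more than 1 tested probe and 13 with 1. The probes of a gene had means of 1 sign for 11 of the 21 (8 positive, 3 negative) and of both signs for 10. The 5 probes of the group designed on cDNA clones (of Hmgcs1, Fdps, Nsdhl, Acly and Srebf2) all had negative means, with a median of -0.67. The Acly one passed the filter through the untreated channel alone, so its negative sign is tied to the filter. With normexp and loess its mean was -0.0976. Among the 3147 other tested probes on such clones 75.8% had a negative mean, with a median of -0.465. Probes on RefSeq transcripts had a median of 0.20 over 57 probes of the group and of 0.06 over 20055 others. This split by the kind of accession was made after the values were seen, and its part in the results was not tested.

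**Figure D5:**
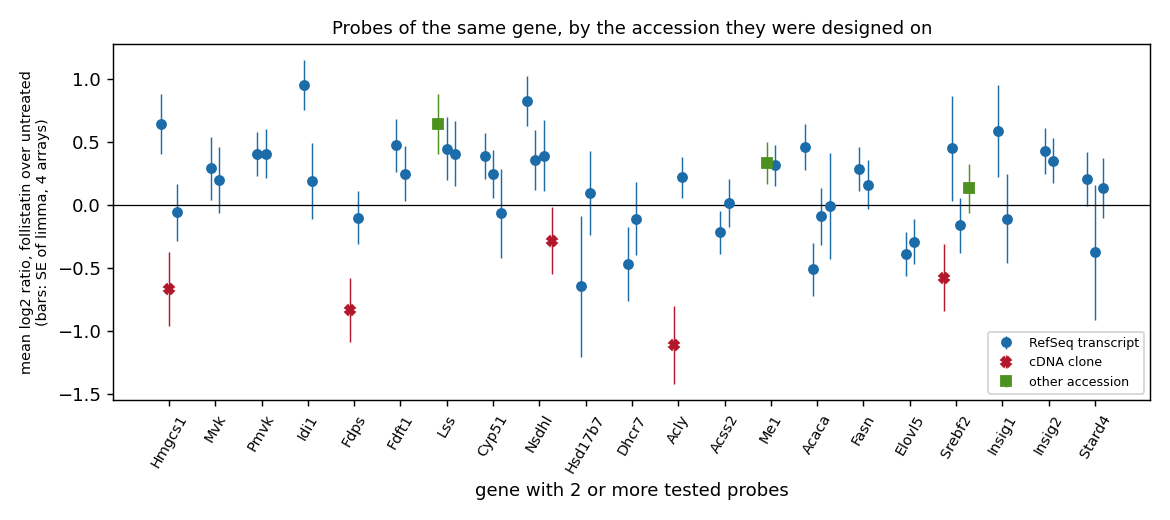
Mean log2 ratio of follistatin over untreated with its limma SE over 4 arrays (vertical axis) for the 21 genes with 2 or more tested probes (horizontal axis), 1 point per probe, by the kind of accession the probe was designed on. The 5 cDNA clone probes all lie below 0, the one of Acly without treated signal well above background. Of the genes, 10 have probes on both sides of 0.

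A list of 48 further genes of lipid metabolism and its control, outside the group, had 76 tested probes for 46 genes. It reaches beyond synthesis, to genes of sterol transport and storage such as Abca1, Npc1 and Soat1. None was called (against 0.00741% of all tested probes), and 16 had an unadjusted p under 0.05 (12 higher, 4 lower), or 21.1% against 20.7% of all probes. Among the 4 lower is a Ptpla probe that passed the filter through the untreated channel alone, so its sign is tied to the filter. The mean ratio was positive for 50 of the 76 probes and negative for 26.

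The smallest p among these further genes belonged to Prkab2, a regulatory subunit of the kinase AMPK, with 1.16, 1.16, 1.46 and 1.03 on one probe. Its mean there was 1.20 (SE 0.169, limma adjusted p 0.103), against 0.31 on its second probe. Erlin2, a protein of the endoplasmic reticulum membrane, gave 0.87, 1.00, 1.24 and 0.18, a mean of 0.82 (SE 0.220, limma adjusted p 0.135), and its other 2 probes had means of 0.66 and 0.18, the last with both signs. Mbtps1, the first of the proteases that cut SREBPs, gave 0.28, 0.70, 0.86 and 0.64, a mean of 0.62 (SE 0.178, limma adjusted p 0.147). That probe was dim, at signals of 115 to 172 in treated and 93 to 103 in untreated cells. With normexp and loess its mean was 0.274 (limma adjusted p 0.214). The other 2 Mbtps1 probes had means of 0.92 and, on the brightest, 0.20, each with both signs. The 3 probes given array by array were positive throughout, but not all probes of Erlin2 and Mbtps1 were. Ptpla, a dehydratase of the elongation of very long chains, had 1 probe not well above background in the treated channel on any array, with signals of 7 to 25 against 23 to 34 in the untreated channel. Its ratios of -1.30, -1.73, -0.73 and -0.39 hold only a bound, at least 1.20-fold lower in treated cells (limma adjusted p 0.125, measured log2 means 3.89 and 4.92). With normexp and loess its mean ratio was -0.0551 (limma adjusted p 0.768), and the other Ptpla probe had a mean of -0.02.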

How the data were processed

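Total RNA of treated and untreated C2C12 cultures was hybridised in pairs to 4 two-colour Agilent whole mouse genome arrays, 1 pair per array. The authors deposited spot intensity as written by Agilent Feature Extraction. The submitters' processing notes give version 10.7.3.1, and the header of replicate 4 gives 10.10.1.1. Per the file headers, that software had subtracted background from the processed intensity and normalized the dyes of each array (the full settings are listed for replicate 4 alone). The authors' deposited log2 table was matched to them by probe: it holds the log2 of the processed Cy3 over Cy5 signal (slope 1, r = 1 on each array), with column medians of -0.163, 0.17, 0.133 and 0.107, so its scale and direction are known and no centring had been applied. The deposited log10 ratio (Cy5 over Cy3) served only to check direction. The design text names the authors' test, an unpaired t-test with adjustment by Benjamini-Hochberg and at least 1.6-fold change.

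The ratios were computed here as the log2 of processed Cy3 over processed Cy5, without control spots and spots marked as outliers. Spots of a probe were averaged, and each array was centred on the median of its tested probes. Tested probes had a value on all 4 arrays and stood well above background in 1 channel on 3 or more of them. No spot was saturated. Ratios were tested against 0 with lmFit and eBayes of limma 3.58.1 in R 4.3.3 and adjusted by Benjamini-Hochberg over all tested probes, with a threshold of 0.05, and the code was tested on simulated data. The bound for a probe dim in 1 channel sets the bright channel's mean log2 processed signal against, per array, the higher of the dim probe's own and the lowest signal well above background, and is open to dye bias. The number of arrays limits the precision.

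Gene names, probe sequences and mm9 positions are those of the annotation columns in the scanner output. Promoters come from a RefSeq table of GRCm38.p6. The genes, the further lipid genes, the marker lists and the groups by role were chosen with earlier results of these data known. Described array by array are the 8 probes of smallest p with 1 sign on all arrays, the brightest probe of 16 core genes, the 4 probes of largest mean ratio, and, of the further genes, the 4 of smallest p with 1 sign. Some items of the further list are not reported here and are left out of its counts. Probes of Hsd17b7, Tm7sf2, Dhcr7 and second probes of named genes were added after their values were seen.

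The alternatives were normexp (offset 50) with loess (span 0.3, 4 iterations) on median signals, no centring, a filter on both channels, no filter, 1 probe per gene, each array left out, replicates 2 and 3 averaged, replicates 1 and 4 alone, slide as a random block, array weights, and the methods' t-test. Normexp and loess with 1 probe per gene was chosen after seeing the data.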

Additional observations from a re-analysis of the deposited data

Results flagged for a closer look

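Among the 65 probes, 5 had 1 array whose ratio stood far from the other 3 (7.69%, against 5.65% of all tested probes), and chance flags about 1 in 20. Lss A_52_P118161 was at 1.42 on replicate 4, with the others between 0.336 and 0.464. Elovl6 was at 1.91 on replicate 4, with the others between 0.184 and 0.465. Fads1 was at -0.186 on replicate 4, with the others between 1.18 and 1.23. Mvk A_52_P569067 was at 1.11 on replicate 1, with the others between -0.119 and -0.0883, and Insig1 A_51_P290207 was at 2.04 on replicate 1, with the others between -0.105 and 0.259. Of these 5 ratios, 3 were on replicate 4, the array of slide 2, and 2 on replicate 1.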

How the results depend on the processing

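The count of 0 called probes of the group held under every alternative except array weights, and its smallest adjusted p in the others ranged from 0.0665 (without replicate 4) to 0.627 (replicates 1 and 4 alone). With array weights (0.487, 2.54, 1.86 and 0.434 for replicates 1 to 4) 13 of the 65 probes of the group were called (5 higher, 8 lower). So were 19 of the 76 probes of the further lipid genes (12 higher, 7 lower) and 7693 of the 26985 over the array (3710 higher, 3983 lower). The share called was smaller in both lists than over the array. These weights rest mostly on replicates 2 and 3, the pair with the high correlation. The count over the array, 2 in the design used, was 0 with normexp and loess, with the filter on both channels, with replicates 2 and 3 averaged, with replicates 1 and 4 alone, with normexp and loess on 1 probe per gene, and without any 1 array (0 to 0). At an unadjusted p under 0.05 the counts were 1852 to 7650 in these settings. The methods' t-test called 2 over the array and 0 in the group (smallest adjusted p 0.156). The shift of the fatty acid enzymes was 0.340 with 1 probe per gene and 0.066 with normexp and loess.

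Of the 65 probes, 16 turned from negative to positive with replicates 1 and 4 alone, 7 turned without replicate 4 (2 to positive, 5 to negative) and 2 turned to positive with normexp and loess. Among the probes taken by the naming rule, the turns were as follows. With replicates 2 and 3 averaged the mean was 0.00712 for Hmgcs1 A_51_P146941, 0.0193 for Sqle and 0.0395 for Stard4. With replicates 1 and 4 alone it was 0.139 for that Hmgcs1 probe, 0.193 for Sqle, 0.875 for Stard4 and 0.372 for Srebf1. With array weights it was -0.0159 for Idi1 A_51_P329711 and -0.0221 for Srebf2, and with normexp and loess on 1 probe per gene 0.00597 for Sqle. Over the fits that leave out 1 array, the mean ranged from -0.273 to 0.0963 for that Hmgcs1 probe, -0.18 to 0.0775 for Sqle, -0.965 to 0.114 for Stard4, -0.178 to 0.384 for that Idi1 probe and -0.0267 to 0.212 for Srebf2. The cause of these turns was not tested. With 4 arrays of 1 dye orientation, dye effects cannot be told apart from treatment, and the dim Acly and Ptpla probes have only a bound.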
